A study of Mus musculus with 4 samples.

Results

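Committed erythroid progenitors were defined as the cells in which Ermap, Rhd, Cldn13 and Sphk1 transcripts together made up at least 5 of every 10000 gene UMIs, while the platelet-lineage transcripts Pf4, Gp1bb, Gp9 and Ppbp together stayed under 10 of every 10000. A UMI (unique molecular identifier) marks 1 captured RNA molecule. A barcode was considered if it had 500 or more genes and 1000 or more gene UMIs, with no more than 10% of UMIs from mitochondrial genes. The rule, which uses measured values of these 4 genes, picked 1464 of 19758 filtered cells in 3 libraries, and the whole series held 27166 filtered cells. There were 614 such cells in the control library, 726 in the library labelled Mll3 deleted and 124 in the library labelled Mll4 deleted.

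Mouse bone marrow positive for Kit and for the CD45.2 allele was taken 10 weeks after transplantation, and RNA was counted together with bound antibodies in each cell (CITE-seq). There were 4 groups of a single library each, namely a control and deletions of Mll3, of Mll4 and of both genes (Mll3/4). Mll3 and Mll4, encoded by Kmt2c and Kmt2d, are related histone H3 lysine methyltransferases that act mainly at enhancers. The line or driver used for deletion, the strain, the sex, the age of the animals, the number of donors in a library and the meaning of the 2 hashtag antibodies are not given in the labels used here, and the control is named only as a control. With 1 library a group no test across samples was possible, so all differences below are between single samples named by their labels (Mll3-labelled, Mll4-labelled), and every interval covers counting error only.

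Red cell development starts in progenitors that express Kit and Gata2 and ends in cells filled with hemoglobin. In between, Gata1 and Klf1 switch on the receptor for erythropoietin, the transferrin receptor that takes up iron, the enzymes that build heme, the globins and the proteins of the red cell membrane, while Gata2 and Kit are shut down. Ermap and Rhd are membrane proteins that carry the Scianna and Rh blood groups in humans. Cldn13 is a claudin expressed in the mouse erythroid lineage, and Sphk1 makes sphingosine-1-phosphate, a lipid that red cells carry in blood. Blvrb, a biliverdin and flavin reductase abundant in red cells, was a marker that the rule did not use.

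The promoters of Ermap, Rhd and Epor, the erythropoietin receptor, are shown because each holds the letters bound by Gata1 and Gata2, the factors whose levels are compared below. They are 300 bases each, from 250 before to 50 after the annotated start, from RefSeq on GRCm38.p6, at chr4:119189946-119190245 on the minus strand, chr4:134864286-134864585 on the plus strand and chr9:21963527-21963826 on the minus strand. Capitals mark AGATAA or TGATAA on either strand.
Ermap: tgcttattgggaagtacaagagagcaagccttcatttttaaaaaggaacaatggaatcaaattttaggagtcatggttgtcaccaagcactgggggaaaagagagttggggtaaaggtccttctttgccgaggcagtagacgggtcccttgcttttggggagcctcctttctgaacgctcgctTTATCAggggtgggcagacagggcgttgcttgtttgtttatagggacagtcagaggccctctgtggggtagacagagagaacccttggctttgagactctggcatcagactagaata
Rhd: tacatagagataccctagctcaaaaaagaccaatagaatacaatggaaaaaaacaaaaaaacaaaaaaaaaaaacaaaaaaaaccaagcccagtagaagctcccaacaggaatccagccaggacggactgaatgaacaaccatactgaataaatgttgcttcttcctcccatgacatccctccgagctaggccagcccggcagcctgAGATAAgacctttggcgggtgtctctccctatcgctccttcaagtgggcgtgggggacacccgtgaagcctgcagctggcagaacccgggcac
Epor: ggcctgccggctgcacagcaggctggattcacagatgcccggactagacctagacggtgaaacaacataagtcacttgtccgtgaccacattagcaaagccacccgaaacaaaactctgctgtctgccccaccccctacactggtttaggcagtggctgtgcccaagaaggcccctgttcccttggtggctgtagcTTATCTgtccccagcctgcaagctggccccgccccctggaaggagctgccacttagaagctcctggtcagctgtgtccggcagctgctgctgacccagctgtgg
The match starts at position -67 in Ermap, -43 in Rhd and -54 in Epor. Such a match was present in 6115 of 32851 promoters of that length (18.6%), and counted by gene in 5664 of 27025 (20.96%). Of the genes of the red cell membrane and blood group list with a promoter in the table, 7 of 16 had one, and of the erythroid transcription factors 7 of 15. The heme synthesis list had 3 of 11. Iron genes and erythropoietin signalling genes, the list that holds Epor, had 2 of 12 each, a lower share than all genes, and the S phase list 3 of 26. A match is a run of letters and was not tested as a binding site. The genes themselves lie at chr4:119175457-119190011 (Ermap), chr4:134864536-134896172 (Rhd), chr5:134914249-134915526 (Cldn13), chr11:116530925-116536674 (Sphk1) and chr7:27447978-27466144 (Blvrb) in the GENCODE M21 annotation of GRCm38.

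The 4 selecting genes reached a summed level of 741 CPM (UMIs of a gene per 1000000 gene UMIs, summed over the cells) over the members in control, 803 in the Mll3-labelled sample and 721 in the Mll4-labelled sample. By construction these values are high, and they describe the cells without testing them. B-lineage cells were taken as cells with at least 10 of 10000 UMIs from Cd79a, Cd79b, Vpreb1 and Igll1. They also had to be under 5 of 10000 for the selecting genes, under 10 for the platelet-lineage genes and under 5 for Car1 and Klf1. In B-lineage cells the sum of the 4 selecting genes was 4.76, 9.48 and 0 CPM in the same order. A UMI of any of the 4 genes was found in 3.07% of control B-lineage cells at a median of 4742 UMIs, 6.51% in the Mll3-labelled sample at 4696 UMIs and 0% of 163 cells in the Mll4-labelled sample at 2367 UMIs. Because B-lineage cells had to be under the selecting threshold, these shares are limited by that definition. They do not measure a background of RNA outside erythroid cells. Blvrb, which was not used for the choice, stood at 982 CPM in control members against 206 CPM in the remaining control cells. It measured 1093 against 276 CPM in the Mll3-labelled sample and 505 against 64.2 CPM in the Mll4-labelled sample. Megakaryocyte genes, 11 in number, summed to 12.8, 7.91 and 6.53 CPM in the members against 364, 422 and 249 CPM in the other cells.

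Transcripts that dominate later erythroblasts were low in these cells. Slc4a1, the band 3 anion exchanger, stood at 0.912, 0.561 and 1.22 CPM in control, Mll3-labelled and Mll4-labelled members, from 34, 22 and 3 UMIs in all. Alas2, the erythroid form of the first enzyme of heme synthesis, gave 43, 34 and 1 UMIs. Kit was still present at 68.2, 79.3 and 112 CPM, whereas Cd34, a stem and progenitor marker, gave 151, 171 and 3 UMIs.

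**Figure D1:**
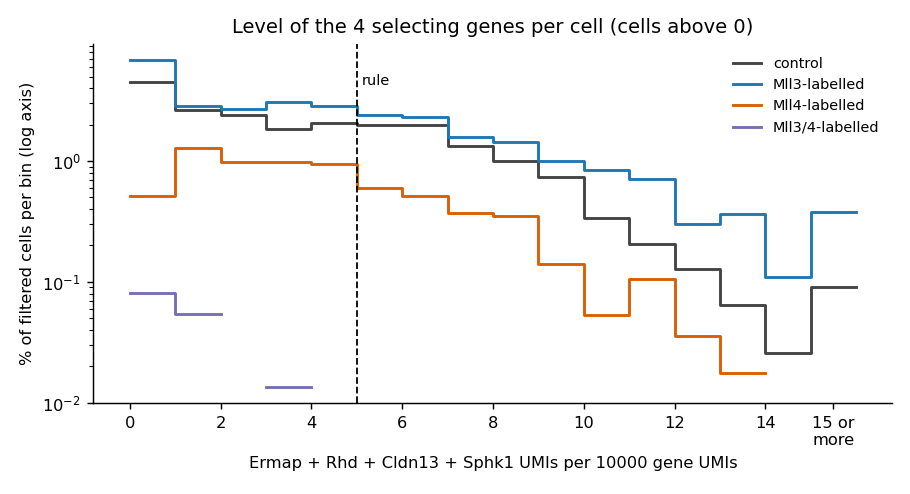
Share of filtered cells (log axis) by the summed UMIs of Ermap, Rhd, Cldn13 and Sphk1 per 10000 gene UMIs, in bins of 1 with all cells at 15 or more in the last bin; cells at 0 are left out and the dashed line is the rule. The distributions run through the line without a gap, and no cell of the Mll3/4-labelled sample passes it.

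The selecting level was continuous across the threshold. Between 5 and 6 of 10000 UMIs there were 155 control members, 152 in the Mll3-labelled sample and 34 in the Mll4-labelled sample, and just below, between 4 and 5, there were 161, 181 and 53 cells. Of those cells just below, 155, 172 and 49 were early erythroid-biased cells, defined here as cells under the threshold with at least 5 of 10000 UMIs from Car1 and Klf1. The median level among the members was 6.99, 7.56 and 6.97 of 10000. Members at 10 or more made up 66 of 614 in control, 171 of 726 in the Mll3-labelled sample and 12 of 124 in the Mll4-labelled sample. The plot of the selecting level shows these distributions.

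Committed erythroid progenitors were most frequent in the Mll3-labelled sample and least frequent in the Mll4-labelled sample, and none was found in the Mll3/4-labelled sample. They made up 7.90% of control cells (95% exact Clopper-Pearson interval 7.31 to 8.53%), 11.4% of the Mll3-labelled cells (10.7 to 12.3%) and 2.19% of the Mll4-labelled cells (1.83 to 2.61%). The log2 ratio of the share to control was 0.53 (0.39 to 0.68) for the Mll3-labelled sample and -1.85 (-2.12 to -1.57) for the Mll4-labelled sample. With a selecting level of at least 10 the former was 1.67. With cells of at least 4000 UMIs thinned to 4000 before the rule, the latter was -1.18. That value is for a different set of cells. It leaves out the cells under 4000 UMIs, 427 of 7768 in control and 1455 of 5649 in the Mll4-labelled sample. In the Mll3/4-labelled sample 0 of 7408 filtered cells met the rule, which allows a share of up to 0.0405% by the limit of 3 counts (exact Clopper-Pearson upper bound 0.0498%), and 99.85% of its cells had no UMI of the 4 genes. That library held 1 early erythroid-biased cell and 7325 B-lineage cells.

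Hashtags divided the libraries, and the higher share in the Mll3-labelled sample lay with the second. Among cells with at least 30 counts of one hashtag and over 3 times the other, thresholds that were chosen after the counts were seen, control members made up 7.09% with Hashtag1 and 8.11% with Hashtag2. In the Mll3-labelled sample the shares were 7.58% and 14.98%, and in the Mll4-labelled sample 2.91% and 1.55%. Against the control cells of the same hashtag, the log2 ratio for the Mll3-labelled sample was 0.10 (-0.14 to 0.34) with Hashtag1 and 0.88 (0.68 to 1.09) with Hashtag2. For the Mll4-labelled sample it was -1.29 (-1.64 to -0.94) and -2.38 (-2.86 to -1.91). The lower share in the Mll4-labelled sample was thus present with either hashtag, while the higher share in the Mll3-labelled sample was beyond counting error with Hashtag2 alone. A hashtag number is not known to mark the same thing in different libraries.

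**Figure D2:**
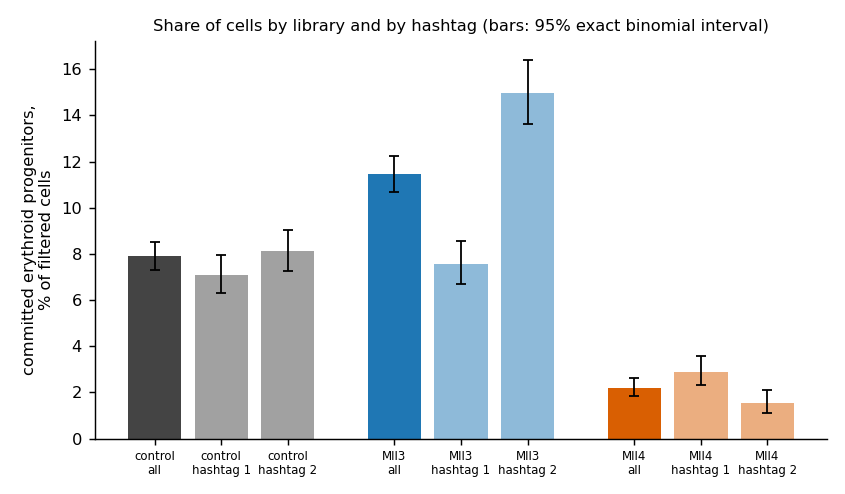
Committed erythroid progenitors as a percentage of filtered cells (y axis) in the control, Mll3-labelled and Mll4-labelled libraries, for all cells and for cells with 1 hashtag, with 95% exact binomial intervals. The Hashtag2 cells of the Mll3-labelled sample stand at 14.98%, and the other Mll3-labelled cells with a hashtag at 7.58%, close to the control bars.

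The balance between committed and early erythroid-biased cells was tilted to the early cells in the Mll4-labelled sample. Members made up 36.7% of members and early erythroid-biased cells together in control (34.3 to 39.0%), 40.9% in the Mll3-labelled sample (38.6 to 43.2%) and 26.8% in the Mll4-labelled sample (22.8 to 31.1%). By hashtag this was 37.4% and 35.3% in control, 28.7% and 53.9% in the Mll3-labelled sample, and 27.1% and 26.5% in the Mll4-labelled sample. The Mll3-labelled cells of the 2 hashtags lay on opposite sides of control. In the Mll4-labelled sample both erythroid classes were less frequent, with early erythroid-biased cells at 339 of 5649 filtered cells against 1061 of 7768 in control.

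Members carried much RNA. Their median was 61698 gene UMIs in control, 55684.5 in the Mll3-labelled sample and 19802 in the Mll4-labelled sample, against 16052.5, 17522 and 5221 UMIs over all filtered cells. Depth differed between libraries, from 36413830 gene UMIs in the Mll4-labelled sample to 174795636 in control, and the summed counts of the members were 37278671, 39216714 and 2450409 UMIs. Values of the Mll4-labelled members are accordingly the least precise. A separate group of small barcodes met the rule, in that 35, 80 and 7 members had under 10000 UMIs, with medians of 1501, 1502 and 2794 UMIs. In the control and Mll3-labelled libraries these barcodes had a median CD117 count of 10 and 11.5, and the unnamed transcript Gm42418, chosen after its values were seen, stood at 92261.5 and 110541.6 CPM in them against 3713 and 5820 CPM in members of at least 10000 UMIs. Other values in these barcodes went against the label. Car1, an erythroid carbonic anhydrase, was at 1034 and 958 CPM in them against 3285 and 3322 CPM, S100a8 at 2285 and 2651 CPM against 456 and 706 CPM, and Elane at 667 and 834 CPM against 46.5 and 86.6 CPM. Neither hashtag was called in 19 and 42 members, whose median depth was 1346 and 1439 UMIs. The selecting level of 23, 44 and 3 members rested on 1 UMI. With members of at least 10000 UMIs alone the log2 ratio of the share was 0.45 for the Mll3-labelled sample and -1.85 for the Mll4-labelled sample.

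Surface antibodies, which the rule did not use, described a Kit-positive cell with few myeloid or stem cell antigens. CD117, the Kit protein, had a median of 165 counts per member in control, 196 in the Mll3-labelled sample and 183 in the Mll4-labelled sample, against 165, 217 and 107 in the other cells of each. CD16/32, the Fc gamma receptors of myeloid progenitors, stood at 7, 8 and 10 counts in members against 30, 31 and 106 in other cells. CD11b, an integrin of myeloid cells, was at 2, 2 and 3 against 8, 6 and 172. CD150, a SLAM receptor of stem cells and early erythroid and megakaryocytic progenitors, was at 3, 3 and 4 counts in members, while early erythroid-biased cells had 17, 9 and 19. CD48, another SLAM family antigen, was at 213, 139.5 and 324 counts in members against 595, 491 and 657 in early erythroid-biased cells. In all other cells CD150 was at 4, 5 and 4 counts, little different from members, and CD48 at 515.5, 443 and 211. Against those cells CD48 was thus lower in control and Mll3-labelled members but higher in Mll4-labelled members. In each library members were below early erythroid-biased cells for CD150 and CD48. Mean hashtag counts were also lower in members than in early cells in control, at 221.1 against 383.2 (Hashtag1) and 411.8 against 696.1 (Hashtag2). In the Mll4-labelled sample they were 270.4 against 498.2 and 341.2 against 594.4, and in the Mll3-labelled sample 266.8 against 643.3 and 599.5 against 553.2. Their part in the antibody differences was not tested.

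CD117 and CD48 also differed among the members. With at least 10000 UMIs, control members at 5 to 10 of the selecting level had a median CD117 of 179 and CD48 of 250.5 counts, and those at 10 or more had 104 and 119. In the Mll3-labelled sample the medians went from 238 and 199.5 to 131.5 and 83.5. In the Mll4-labelled sample they went from 192 and 342.5 to 140 and 166, with 11 cells at 10 or more. The median depth of the cells at 10 or more was lower, at 58319 against 63293 UMIs in control. It was 53559.5 against 60131 in the Mll3-labelled sample and 17071 against 20477.5 in the Mll4-labelled sample. The higher hashtag count was lower in them too, with medians going from 511.5 to 399, from 800 to 598.5 and from 467.5 to 264, and its part in the antibody differences was not tested.

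Within each library, members had higher levels of many genes for red cell products than early erythroid-biased cells, and lower levels of myeloid genes. This is a description, since the rule separates the classes along the same axis. Of the 13 measured heme synthesis genes in control, 7 were at least 1.5-fold higher in members and 0 lower, with a median log2 ratio of 0.62, beside 182 higher and 260 lower of 5308 measured genes and a median of 0.06. In the Mll3-labelled sample it was 8 of 12 higher (median 0.71), beside 125 higher and 187 lower of 5185 genes. In the Mll4-labelled sample it was 7 of 13 (median 0.64), beside 173 higher and 273 lower of 5793 genes. Red cell membrane genes had 9 of 17, 7 of 15 and 10 of 18 higher, with medians of 0.75, 0.58 and 0.67. Cpox, the coproporphyrinogen oxidase of heme synthesis, stood at 395, 330 and 655 CPM in members and at 205, 185 and 352 CPM in early erythroid-biased cells. Tfrc, the transferrin receptor, measured 298, 255 and 385 CPM in members and 133, 129 and 219 CPM in early cells. Stem and early progenitor genes were lower, with 4 of 5, 4 of 6 and 3 of 5 past 1.5-fold. Myb, a factor of dividing progenitors, stood at 246, 253 and 262 CPM against 445, 397 and 435 CPM in early cells. Granulocyte progenitor genes were lower in 5 of 6, 6 of 7 and 5 of 6, with medians of -0.96, -1.14 and -1.30, and neutrophil genes in 4 of 6, 6 of 6 and 6 of 6, with medians of -0.63, -0.72 and -1.28. The part of this RNA in the other differences was not tested. The 33 measured S phase genes barely separated the classes, with medians of 0.22, 0.14 and 0.14.

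Adult globin transcripts were spread very unevenly over the members. Hba-a1 and Hba-a2, and likewise Hbb-bs and Hbb-bt, are near-identical copies, so the split within each pair is uncertain. In control, a cell with 22645 UMIs held 8567 of all 18583 globin UMIs of the members, or 46.1%. In the Mll3-labelled sample the richest cell held 618 of 7787 (7.94%), and in the Mll4-labelled sample 96 of 534 (18.0%). Without that cell in each library the 4 globins together stood at 269, 183 and 180 CPM. A globin UMI was found in 85.8% of control members, 61.7% of Mll3-labelled and 55.6% of Mll4-labelled members, and in 5.56%, 3.83% and 1.23% of B-lineage cells, which are much shallower. After thinning every cell of at least 4000 UMIs to 4000, the shares were 41.6% (37.5 to 45.7%), 23.1% (19.9 to 26.6%) and 32.5% (24.2 to 41.6%). Thinned B-lineage cells gave 2.03%, 1.99% and 7.14%, the last from 28 cells, and thinning left out 34, 73 and 4 members.

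**Figure D3:**
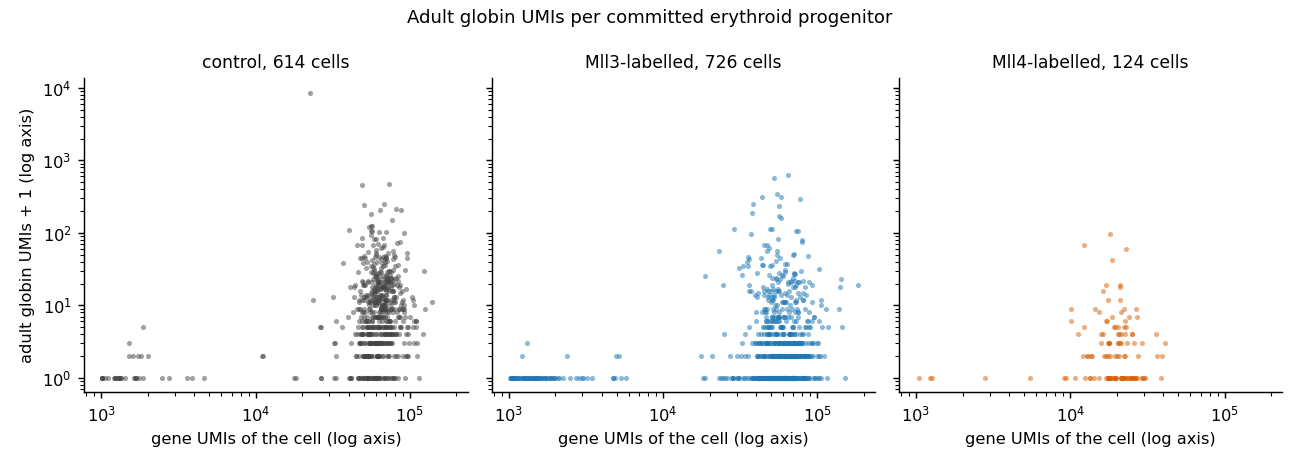
Adult globin UMIs plus 1 (y axis, log) against gene UMIs (x axis, log) for each committed erythroid progenitor of the 3 libraries. A control cell at 8567 globin UMIs stands apart from all others, and the members under 10000 UMIs form a separate group with few globin UMIs.

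Members with the most globin also had less Kit, Gata2 and Myb. In control, 71 members with at least 10000 UMIs had 5 or more globin UMIs per 10000, a cut chosen after the values were seen, and 508 had fewer. Kit stood at 28.3 CPM in the globin-rich members against 73.7 CPM in the others. Gata2 measured 11.6 against 26.5 CPM and Myb 121 against 262 CPM. The same order held in the Mll3-labelled sample (50 cells), where Kit was at 21.9 against 83.1 CPM and Myb at 91.1 against 263 CPM, and in the Mll4-labelled sample (12 cells), where Kit was at 14.3 against 123 CPM and Myb at 66.7 against 281 CPM. CD117 counts had medians of 88 against 185, 83.5 against 226 and 101.5 against 199. The higher of the 2 hashtag counts was lower in the globin-rich members as well, with medians of 406 against 519, 471.5 against 760.5 and 207 against 448. Myeloid RNA also differed between these members. S100a8, a neutrophil gene, was at 667 against 428 CPM in control, 1813 against 630 CPM in the Mll3-labelled sample and, in the other direction, 691 against 1345 CPM in the Mll4-labelled sample. Elane, neutrophil elastase, was at 107 against 38.3 CPM, 146 against 82.5 CPM and 23.8 against 27.6 CPM. The part of these differences in the others was not tested. Slc4a1 was at 7.71, 7.56 and 14.3 CPM in the globin-rich members, from 34, 19 and 3 UMIs.

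The members of the Mll3-labelled sample resembled those of control in nearly all erythroid genes, and those of the Mll4-labelled sample differed in many. Genes with a mean of at least 20 CPM over both libraries were compared as the log2 ratio of CPM plus 1. In the Mll3-labelled sample 25 of 5171 genes were at least 1.5-fold higher (0.483%) and 48 lower (0.928%), 1.41% in either direction, with a median log2 ratio of -0.07. In the Mll4-labelled sample 1005 of 5485 genes were higher (18.3%) and 317 lower (5.78%), 24.1% in either direction, with a median of 0.17. That split depends on the scaling. Centred on the median, 584 were higher and 666 lower, and with edgeR's TMM factors 420 of 5269 were higher and 789 lower. Among the named genes, log2 ratios of the Mll4-labelled members of up to 0.23 in size changed sign with TMM, and values below are read against the median of 0.17. Both comparisons share the control library.

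The deleted genes were checked first. Kmt2c stood at 36.9 CPM in control members (95% exact Poisson interval 35.0 to 38.9), 23.6 in the Mll3-labelled and 38.4 in the Mll4-labelled members. Kmt2d stood at 19.3, 18.0 and 22.0 CPM. The log2 ratio of Kmt2c in the Mll3-labelled sample was -0.63, with 16.3 CPM in Hashtag1 members and 26.6 CPM in Hashtag2 members, and it was -0.58 with TMM scaling, inside 1.5-fold. As a mean of each cell's share of UMIs it was 0.15, with the other sign. Kmt2d was not lower in the Mll4-labelled members, at a log2 ratio of 0.18. The counts come from the 3' end of transcripts, and where they lie outside the deleted part they check nothing. Of the 7 measured genes of the Mll3/4 complex list, Kdm6a, an X-linked demethylase subunit, was lower in the Mll4-labelled members, at 16.3 CPM against 30.9 CPM in control. Wdr5, a core subunit, was at 52.0, 47.5 and 86.5 CPM, a log2 ratio of 0.72 there that was inside 1.5-fold with TMM (0.48) and centred (0.55). That library also lacked Xist, at 0 CPM against 606 CPM in control, and carried the Y-linked Eif2s3y at 91.0 CPM against 0 CPM, so the deletion and sex cannot be told apart there.

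Among transcription factors the clearest difference was in Gata2, which drives early progenitors and precedes Gata1. It stood at 24.7 CPM in control members (23.1 to 26.4), 11.5 CPM in the Mll3-labelled members (10.5 to 12.6) and 61.2 CPM in the Mll4-labelled members (51.8 to 71.8), log2 ratios of -1.04 and 1.27. The 3 intervals do not overlap. Both hashtags showed it, with 26.7 and 22.5 CPM in control members, then 9.48 and 12.1 CPM in the Mll3-labelled sample and 65.3 and 50.6 CPM in the Mll4-labelled sample. In early erythroid-biased cells the log2 ratios were -0.62 and 0.76, and in all other cells -0.30 and -0.06. Its mean over control and Mll3-labelled members was under 20 CPM, so Gata2 is not among the genes counted in that comparison.

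Gata1, the main erythroid factor, measured 104, 106 and 122 CPM, and Klf1, an activator of globin and membrane genes, 234, 220 and 255 CPM. Neither was past 1.5-fold in any library. Of 14 measured erythroid transcription factors 0 were higher and 0 lower in the Mll3-labelled members. In the Mll4-labelled members 1 of 15 was higher and 2 lower, beside 18.3% and 5.78% of all genes. With TMM 0 were higher and 4 lower, beside 420 and 789 of 5269 genes. Foxo3, a factor of oxidative stress defence in red cell precursors, was the higher one, at 18.8 CPM in control and 29.8 CPM, a log2 ratio of 0.63 that was 0.40 with TMM. Gfi1b, a repressor needed for red cell and platelet formation, was lower at 80.1 against 50.6 CPM (-0.65), and Klf3, a repressor of the Klf1 network, at 74.4 against 45.7 CPM (-0.69). In early erythroid-biased cells the ratios of these 2 were -0.16 and -0.39.

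Receptors and signalling genes of erythropoietin differed little between control and Mll3-labelled members. Epor stood at 96.7, 97.5 and 118 CPM. None of 5 measured genes of the list was past 1.5-fold in the Mll3-labelled members. Of 6 measured in the Mll4-labelled members 2 were higher, beside 18.3% of all genes, and the list median was 0.35. Pim1, a kinase gene induced by Stat5, was one of them, at 45.7, 33.2 and 89.4 CPM (log2 ratio 0.95, and 0.71 with TMM). Jak2, the kinase bound to the receptor, was the other, at 19.8, 17.3 and 31.8 CPM (0.66, and 0.42 with TMM). Kit, the receptor for stem cell factor, had a log2 ratio of 0.70 in the Mll4-labelled members, inside 1.5-fold with TMM at 0.46, beside 0.60 in early erythroid-biased cells.

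Iron genes were level between control and Mll3-labelled members, with 0 of 14 past 1.5-fold. In the Mll4-labelled members 3 of 15 were higher and 0 lower, beside 18.3% and 5.78% of all genes. With TMM 0 were higher and 3 lower, beside 420 and 789 of 5269 genes. The direction of the list thus turns with the scaling, as it does over all genes. Tfr2, the second transferrin receptor, stood at 61.9, 55.1 and 100 CPM. Steap3, which reduces iron in endosomes, stood at 102, 106 and 172 CPM, and Ncoa4, the receptor for ferritin breakdown, at 24.97, 21.2 and 44.1 CPM. Fth1, the ferritin heavy chain that stores iron, was at 4426, 4280 and 3082 CPM, a log2 ratio of -0.52 in the Mll4-labelled members.

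Of 14 measured heme synthesis genes, 3 were higher and 1 lower in the Mll4-labelled members, near the 18.3% and 5.78% of all genes. The list median was 0.36. With TMM 1 was higher and 3 lower, beside 420 and 789 of 5269 genes. Abcb6, a porphyrin transporter, was higher under every scaling, at 21.1, 22.6 and 57.5 CPM (log2 ratio 1.41). Cpox, at the levels given above, had a ratio of 0.73 (0.48 with TMM), and Alas1, the housekeeping form of the first enzyme, stood at 20.7, 21.1 and 34.7 CPM (0.72, and 0.48 with TMM). Alad, the second enzyme of the pathway, was lower, at 190, 226 and 114 CPM (-0.74). The ratios had the same sign in early erythroid-biased cells, at 1.61 for Abcb6, 0.78 for Cpox, 0.76 for Alas1 and -0.63 for Alad.

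In the Mll3-labelled members 1 of 14 heme genes was past 1.5-fold. Tspo2, an erythroid membrane protein that binds cholesterol, measured 82.8 CPM in control and 145 CPM (log2 ratio 0.80), with 136 and 154 CPM by hashtag. It was higher in early erythroid-biased cells (0.75) and in other cells (0.98) of that library too. Blvrb, of the heme breakdown list, had a ratio of 0.15 in the Mll3-labelled and -0.96 in the Mll4-labelled members. The latter was -0.76 in early erythroid-biased cells and -1.66 in other cells. Prdx2, a peroxidase abundant in red cells, was likewise lower in the Mll4-labelled members, at 1302 against 737 CPM (-0.82). Of 12 measured redox genes there 4 were lower and 1 higher, beside 5.78% and 18.3% of all genes. With TMM 5 were lower and 0 higher, beside 789 and 420 of 5269 genes.

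Globins stood lower in both single-deletion samples, and several of the values turned on a single control cell. Hba-a1 was at 122, 97.2 and 30.2 CPM, Hba-a2 at 66.6, 24.8 and 11.4 CPM, Hbb-bs at 155, 37.8 and 78.3 CPM and Hbb-bt at 155, 38.7 and 97.9 CPM. In the Mll3-labelled members 3 of 4 were past 1.5-fold lower, beside 0.928% of all genes, and in the Mll4-labelled members 4 of 4, beside 5.78%. Without the richest cell of each library, the log2 ratios for the Mll3-labelled members were 0.41 for Hba-a1, -0.55 for Hba-a2, -0.41 for Hbb-bs and -1.88 for Hbb-bt. For the Mll4-labelled members they were -1.20, -1.59, 0.28 and -0.50. Hbb-bt in the Mll3-labelled members and both alpha globins in the Mll4-labelled members stayed past 1.5-fold, and the others did not. Hbb-bt was detected in 74.3% of control, 27.3% of Mll3-labelled and 44.4% of Mll4-labelled members. By hashtag Hbb-bt was at 176 and 144 CPM in control against 13.7 and 58.8 CPM in the Mll3-labelled sample.

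Membrane and blood group genes were mostly level. None of 18 was past 1.5-fold in the Mll3-labelled members, with a median of -0.10. Rhag, the partner of Rhd in the Rh complex, had the largest ratio there, at 111, 80.8 and 144 CPM (-0.45). In the Mll4-labelled members 2 of 18 were higher and 1 lower, with a median of 0.15, beside 18.3% and 5.78% of all genes. With TMM 0 were higher and 4 lower, beside 420 and 789 of 5269 genes. Kel, the Kell blood group peptidase and one of the higher genes, stood at 25.3, 21.2 and 43.7 CPM (0.76, and 0.52 with TMM). Icam4, the Landsteiner-Wiener antigen that binds macrophage integrins, was lower under every scaling, at 66.1, 56.2 and 33.9 CPM (-0.94).

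The selecting genes themselves, given as a description, stood at 320, 333 and 350 CPM for Ermap, 169, 190 and 126 CPM for Rhd, 124, 133 and 89.0 CPM for Cldn13 and 128, 148 and 156 CPM for Sphk1. Of the other sphingosine-1-phosphate genes, Mfsd2b, the exporter of the lipid from red cells, measured 35.5, 36.4 and 41.6 CPM. Sgpp1, a phosphatase that degrades it, measured 49.8, 41.7 and 44.1 CPM. Of the list, 0 of 4 measured were past 1.5-fold in the Mll3-labelled members. Of 6 measured in the Mll4-labelled members 3 were higher, beside 18.3% of all genes, or 0 of 4 with TMM, beside 420 of 5269. Those 3 were Sphk2, the second kinase, at 15.96 against 25.7 CPM, the transporter gene Spns1 at 14.97 against 26.5 CPM, and Cers2, a ceramide synthase, at 122 against 194 CPM.

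**Figure D4:**
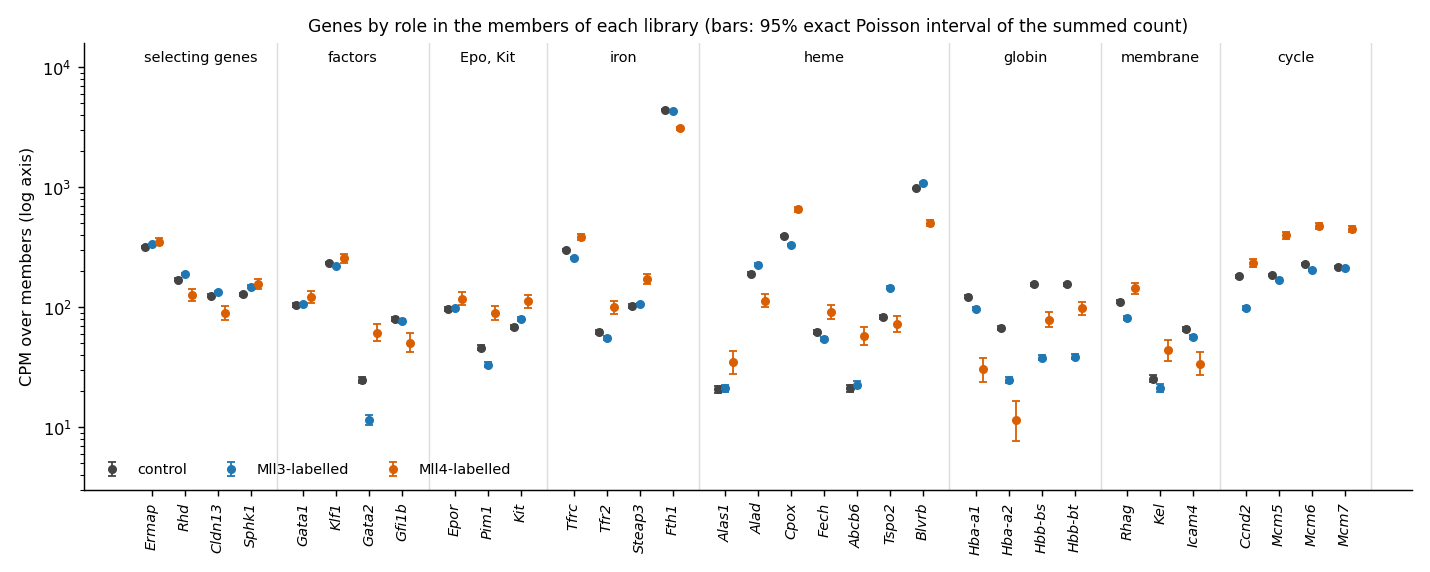
CPM over the members (y axis, log) for genes grouped by role in the control, Mll3-labelled and Mll4-labelled libraries, with 95% exact Poisson intervals. Gata2 separates the 3 libraries in both directions, the globins are highest in control (with the richest cell included), and Mcm5, Mcm6 and Mcm7 are highest in the Mll4-labelled members.

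Cell cycle genes separated the libraries in few places. Ccnd2, a D-type cyclin of early progenitors, stood at 180 CPM in control members and 98.5 CPM in the Mll3-labelled members (log2 ratio -0.87), with 110 and 88.1 CPM by hashtag, and at 233 CPM in the Mll4-labelled members. It was the 1 gene of 10 in its list past 1.5-fold in the Mll3-labelled members, and its ratio was -0.51 in early erythroid-biased cells and -0.25 in other cells. None of 33 S phase and 36 G2/M genes was past 1.5-fold there. In the Mll4-labelled members 7 of 33 S phase genes were higher and 1 lower (median 0.27), near the 18.3% of all genes that were higher. With TMM 3 were higher and 2 lower, beside 420 and 789 of 5269 genes. The 3 were subunits of the replicative helicase: Mcm5 at 186, 169 and 398 CPM (1.09), Mcm6 at 229, 205 and 477 CPM (1.06) and Mcm7 at 217, 211 and 451 CPM (1.05). Their ratios were 1.24, 1.19 and 1.08 in early erythroid-biased cells. Gmnn, an inhibitor of replication licensing, was the lower one, at 227 against 148 CPM. Of 36 G2/M genes 8 were higher and 0 lower, beside 18.3% and 5.78% of all genes. With TMM 2 were higher and 3 lower, beside 420 and 789 of 5269 genes. Myc measured 148, 132 and 271 CPM, a ratio of 0.87 that was 0.62 with TMM.

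**Figure D5:**
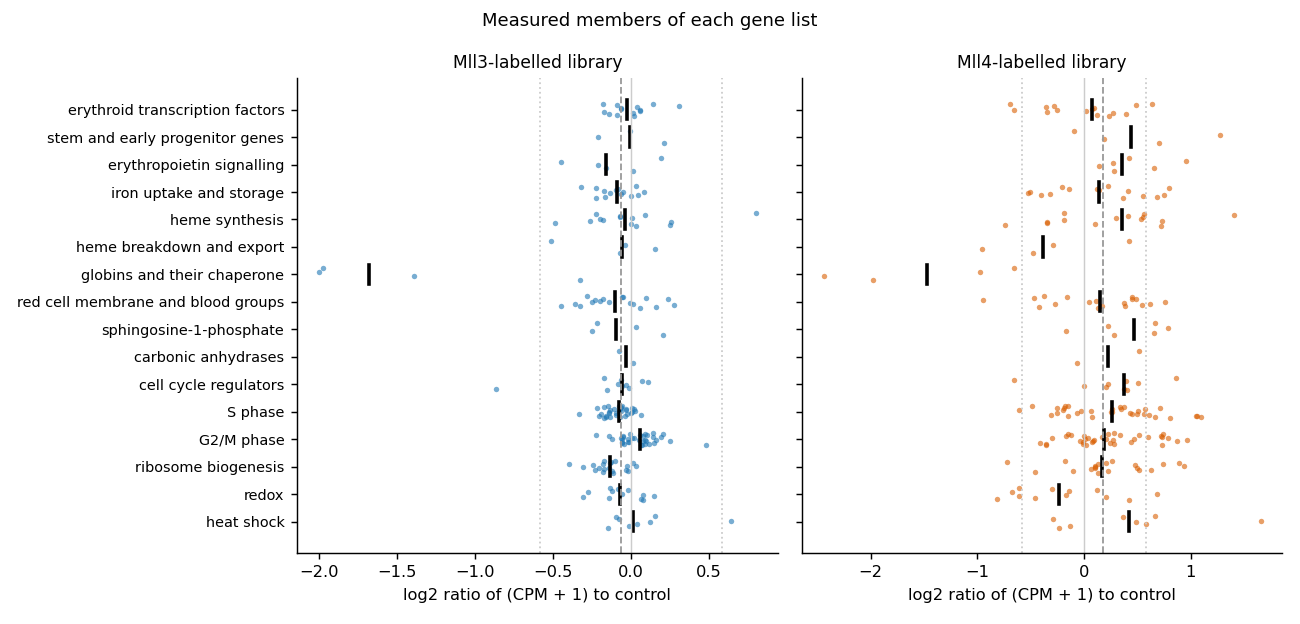
Log2 ratio of (CPM + 1) to control (x axis) for each measured gene of 16 lists, in the Mll3-labelled sample (left) and the Mll4-labelled sample (right). Points are genes, black bars list medians, the dashed line the median of all measured genes and dotted lines 1.5-fold. List medians other than the globins lie near the all-gene median on the left and spread more widely on the right.

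Several genes with large ratios in the Mll3-labelled members had ratios of the same sign in the other cells of that sample. Higher by rank were Pttg1, Prss50, Gstp1, Rpl35, Polr2l, Tspo2, Arhgdig, Hmga1, Hspa8 and Kpna2. Pttg1, the separase inhibitor securin, was at 30.9 against 103 CPM (log2 ratio 1.71), beside 1.45 in early erythroid-biased and 2.01 in other cells. Rpl35, a ribosomal protein, was at 1026 against 1891 CPM (0.88), beside 0.81 and 0.86. Without the condition on the control level, Hist1h2ap, Gm10076 and Mpo joined Pttg1 and Prss50. Lower were Hbb-bs, Hbb-bt, Tjp1, Nutf2-ps1, Bex4, Hba-a2, Fads2, Cpd, Wdr89 and Gdf3. Tjp1, a tight junction scaffold, was at 47.1 against 11.7 CPM (-1.92), beside -2.68 and -2.38. Rgcc, a regulator of the cell cycle, entered the lower genes without that condition, at 102, 30.6 and 36.3 CPM. Its ratio was -1.70 in the Mll3-labelled members, -0.58 in early erythroid-biased cells and -0.34 in other cells.

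Several of these rested on 1 hashtag. Cpd, a carboxypeptidase, was at 59.4 and 116 CPM in control members with Hashtag1 and Hashtag2, and at 73.5 and 15.4 CPM in the Mll3-labelled members. Gdf3, a growth factor gene, was at 78.9 and 88.5 CPM in control and at 66.2 and 21.3 CPM. Arhgdig was at 15.96 and 22.8 CPM in control and at 51.7 and 21.1 CPM. Cpd and Gdf3 were thus low in the Hashtag2 cells, and Arhgdig was high in the Hashtag1 cells. Bex4 was low with both hashtags, at 254 and 240 CPM in control and 76.8 and 104 CPM.

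In the Mll4-labelled members the 10 genes with the largest higher ratios were Aldh1a3, Olfr889, Pcgf2, AC160336.1, Snhg9, C2cd4a, Hook2, Mogs, Polr2l and Hspa8. Aldh1a3, a retinaldehyde dehydrogenase, was at 10.9 against 69.4 CPM (log2 ratio 2.56), beside 2.77 in early erythroid-biased and 1.69 in other cells. Pcgf2, a polycomb repressive complex 1 subunit, was at 9.09 against 55.1 CPM (2.47), beside 1.66 and 0.48. Hspa8, a constitutive chaperone that was higher in both deletion libraries, was at 1949, 3038 and 6141 CPM. Xaf1, an interferon-induced gene, was at 7.94, 12.4 and 44.9 CPM (2.36), beside 1.65 and 0.19, and its 110 UMIs in the Mll4-labelled sample came from 16.1% of the members. Lower were Hba-a2, Hba-a1, Mgst3, Nenf, Hist1h2an, Mrps24, Bex4, Nutf2-ps1, Emc9 and Pop7. Mrps24, a mitochondrial ribosomal protein, was at 328 against 148 CPM (-1.14), beside -1.02 and -1.41. Without the condition, Eif2s3y and Gm10076 joined the higher genes, and Xist, Gm47283 and Hist1h3i the lower ones.

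The remaining lists were small or mostly level. Over all genes 0.483% were higher and 0.928% lower in the Mll3-labelled members, and 18.3% and 5.78% in the Mll4-labelled members. With TMM 420 of 5269 genes were higher and 789 lower in the Mll4-labelled members. Of the stem and early progenitor list, 0 of 3 measured genes were past 1.5-fold in the Mll3-labelled members, and 2 of 4, Gata2 and Kit, were higher in the Mll4-labelled members, or 1 with TMM. Ribosome biogenesis genes had 0 of 20 past 1.5-fold in the former. In the latter 4 of 20 were higher and 1 lower, near the shares of all genes, or 2 and 2 with TMM. Of 8 heat shock genes Hspa8 was the 1 higher gene in the Mll3-labelled members, and 2 were higher in the Mll4-labelled members, or 1 with TMM. Of the immediate early list, Jun, a subunit of the AP-1 factor, stood at 34.6, 21.6 and 62.9 CPM. It was the 1 lower gene of 4 measured in the Mll3-labelled members (-0.66). In the Mll4-labelled members 2 of 5 were higher, Jun (0.84) and Ier5, which stood at 15.3, 6.38 and 37.1 CPM (1.23). Of the interferon response list 0 of 2 were past 1.5-fold in the Mll3-labelled members and 2 of 3 were higher in the Mll4-labelled members, Xaf1 being one of them. With TMM or centring it was 1 higher and 1 lower, the latter Bst2, a membrane protein induced by interferon, at a log2 ratio of -0.54, or -0.78 and -0.71 so scaled. Neither of the 2 measured carbonic anhydrases, which interconvert carbon dioxide and bicarbonate, was past 1.5-fold in any sample.

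RNA typical of other cells moved with the libraries as well. The neutrophil list, 8 genes, summed to 1900, 2697 and 4009 CPM in the members, against 74204, 51140 and 184814 CPM in the other cells, and 1885, 2667 and 3703 CPM in members of at least 10000 UMIs. S100a8 was at 459, 713 and 1399 CPM in members. Of 6 measured neutrophil genes 1 was higher in the Mll3-labelled members and 5 in the Mll4-labelled members, beside 0.483% and 18.3% of all genes. Granulocyte progenitor genes, 7 in number, summed to 1201, 1336 and 1134 CPM. In the Mll3-labelled members 4 of 6 measured, Elane, Prtn3, Mpo and Ctsg, were higher, beside 0.483% of all genes. In the Mll4-labelled members 0 of 6 were higher and 3 lower, beside 18.3% and 5.78%. Elane stood at 47.5, 89.5 and 28.6 CPM. The B-cell progenitor list summed to 12.0, 17.9 and 2.04 CPM, with 0, 0 and 5 of its 8 genes at 0 counts, and the macrophage list, 8 genes, to 1.56, 1.99 and 2.86 CPM. Monocyte and macrophage progenitor genes summed to 22.4, 29.3 and 26.5 CPM, MHC class II genes to 35.4, 49.6 and 53.1 CPM, T, NK and innate lymphoid genes to 10.8, 12.6 and 5.31 CPM, and basophil and mast genes to 4.21, 2.37 and 11.4 CPM. The part of such RNA in the differences above was not tested. Across the 4 libraries 104 barcode sequences were shared by a pair of libraries, and 0 were members in both.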

How the data were processed

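The deposited matrices hold UMI counts per gene and antibody, made by the authors with Cell Ranger 6.1.2 on mm10, per the submitters' processing notes, with no normalization. They cover 32285 gene and 15 antibody features. Here raw counts were summed over the members of a library and scaled to CPM. Log2 ratios used a pseudocount of 1 CPM and genes with a mean of at least 20 CPM, and 1.5-fold counted as different. Shares carry exact Clopper-Pearson and CPM exact Poisson intervals at 95%. No doublets were removed in the main values, and Scrublet in scanpy 1.11.5 was an alternative. TMM factors came from edgeR 4.0.16. The calculation of each comparison was run on simulated data with 200 genes changed 2-fold, of which 100% were recovered in both. A 2-fold change lies past the 1.5-fold threshold, so this recovery was largely set by the design and checks the calculation alone. Smaller changes and the spread between cells or between libraries were not tested with it. The members, gene lists and thresholds were chosen with earlier results of these data known. Named genes were the selecting genes, Blvrb, Kmt2c and Kmt2d, up to 4 of each list by ratio plus those with a described role, the 10 with the largest ratios in each direction whose control level in members was at least that in other control cells (without Xist, Y-linked, mitochondrial and Gm- or Rik-named genes), and the top 5 without that condition. A few genes that the rule names are not reported here.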

Additional observations from a re-analysis of the deposited data

Results flagged for a closer look

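Hba-a1 had log2 ratios of opposite sign in the 2 erythroid classes of the Mll4-labelled sample. The log2 ratio to control was -1.98 in the committed erythroid progenitors (122 against 30.2 CPM) and 0.81 in the early erythroid-biased cells (3.22 against 6.40 CPM). The early-cell levels are under the minimum of 20 CPM used for comparing genes, beside 0.501 and 2.29 CPM in B-lineage cells, so no direction is read from them. Without the cell richest in globin in each library the value in the members was -1.20. The difference between the 2 classes was not tested, and Hba-a2 shares near-identical sequence.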

How the results depend on the processing

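No paired analysis was possible because each group has 1 library. Leaving out cells under 10000 UMIs, the cell richest in globin, and the splits by hashtag, globin and cell size were chosen after seeing the data; leaving out a library leaves no comparison. The log2 share ratio of the Mll3-labelled sample (0.53) was 1.67 at a selecting level of at least 10, 0.10 with the first hashtag and 0.88 with the second; for the Mll4-labelled sample (-1.85) it was -1.18 after thinning to 4000 UMIs before the rule, -1.29 and -2.38. Genes higher in the Mll3-labelled members (25) numbered 40 after thinning, 62 as means of each cell's share, 77 with a minimum of 5 CPM, 171 with none and 4 at 2-fold. Lower genes (48) numbered 83 at a level of at least 10, 94 after thinning, 88 with the first hashtag, 124 with a minimum of 5 CPM, 16 with 50 CPM, 249 with none and 16 at 2-fold. Genes higher in the Mll4-labelled members (1005) numbered 1609 at a level of at least 10, 420 with TMM, 584 centred, 1661 with a minimum of 5 CPM, 498 with 50 CPM, 2275 with none and 228 at 2-fold. Lower genes (317) numbered 628 at a level of at least 10, 789 with TMM, 666 centred, 969 with no minimum, 24 at 2-fold and 477 within bins of the selecting level. Median CD117 and CD48 counts were 93.5 and 108.5 (control), 115 and 73 (Mll3-labelled) and 131 and 150 (Mll4-labelled) at a level of at least 10, and 189.5 and 292.5, 233 and 209, and 220 and 418.5 after thinning. With the first hashtag they were 183 and 255 in control; with the second, 152.5 and 190.5 in control, 212.5 and 156 in the Mll3-labelled sample and 160.5 for CD117 in the Mll4-labelled sample. In the Mll3-labelled sample CD117 was 214 with at least 3 UMIs of the selecting genes, and CD117 and CD48 were 216 and 156 with at least 3000 UMIs and 217.5 and 160 with at least 10000.

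Of 760 list medians under alternatives, 610 stayed within a small fixed distance of the main value and 148 moved further. Of 4277 values of named genes, 3515 stayed within the counting error of the main value and 746 moved further. The other 2 and 16 values were reversed, meaning that a main value past 1.5-fold took the other sign. Sign changes of smaller main values were not counted as reversed, and several list medians and genes had them. In the Mll3-labelled comparison the reversed log2 ratios were 0.15 for Kmt2c as a mean of each cell's share, -0.11 for Arhgdig with the second hashtag, 0.30 for Cpd with the first, and -0.028 for Xaf1 at a level of at least 10. In the Mll4-labelled comparison at that level, they were -1.13 for the interferon list median, -0.47 for Hmga1, -0.45 for Ncoa4, -3.98 for Sphk2 and -0.95 for Xaf1. The interferon median was -0.54 with a minimum of 50 CPM. Thinning gave 0.37 for Prss50 and -0.20 for Spns1, and bins of the selecting level -1.62 for Sphk2. Hbb-bs was 0.79 without the highest Scrublet scores, 1.62 with the second hashtag, 0.36 within bins and 0.28 without the richest cell, and Hbb-bt 0.28 with the second hashtag. The cause was not tested. Depth limits the Mll4-labelled members most.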
